A study of Mus musculus with 240 samples.

Results

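Triadin and the calcium release machinery of the endoplasmic reticulum were followed here across mouse oligodendrocyte precursor cells (OPCs) and gliomas. The set held 10 of the 34623 genes in the count table, picked by symbol: Trdn, Asph, Casq2, Jph3, the ryanodine receptor genes Ryr1, Ryr2 and Ryr3, and the IP3 receptor genes Itpr1, Itpr2 and Itpr3. Trdn was chosen for its large fall in tumours, so that its levels there are a description and carry no test. The other members and the gene lists were also chosen with earlier results of these data known. Counts of them that passed in tumours describe these sets and are not separate evidence. All 10 genes passed the filter on low counts in the bulk libraries.

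Calcium stored in the endoplasmic reticulum leaves through 2 families of channels. Ryanodine receptors open to calcium and to coupling with the plasma membrane, and IP3 receptors open when phospholipase C has made IP3 below a surface receptor. Triadin, encoded by Trdn, is a membrane protein that ties calsequestrin to the ryanodine receptor in muscle. Asph encodes junctin and junctate, which sit at the same junctions, as well as the aspartyl hydroxylase that gives the gene its name. Casq2 encodes the calcium buffer calsequestrin 2. Jph3 encodes junctophilin 3, which holds the reticulum close to the plasma membrane in neurons. IP3 receptors carry the calcium signals of glia, and Ryr2 and Ryr3 are well known from brain.

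OPCs were cut from mouse brain sections by laser capture, in mice of genotype Trp53-/- Nf1-/- (CKO) or wild-type (WT). Times count from the start of tamoxifen (days, dpi). Bulk libraries came from CKO mice at 12 dpi (7 animals), WT at 12 dpi (5), CKO at 90 dpi (7), WT at 90 dpi (5), tumours of Trp53-/- Nf1-/- mice at 150 dpi (7) and WT at 150 dpi (6), 37 animals in all. Every group, WT included, is timed from tamoxifen, and the titles of all bulk libraries carry tdTpositive. The driver of the recombinase and the animals' ages are not given in the sources used here. Small libraries came from Trp53-/- Nf1-/- mice alone, at 12 and 90 dpi: 112 of 10 captured cells (10-cell) and 80 pool-and-split controls.

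Depth and makeup set the frame for every value below. Bulk libraries held 93694 to 23199230 counts (median 9999625), and the shallowest, of animal WT_21167 at 90 dpi, had 10743 genes above 0. The 10-cell libraries held 1639385 to 6489275 counts and the pool-and-split libraries 1906783 to 5160788. OPC markers summed to between 2848 and 5619 CPM (counts scaled to a library total of 1000000) in the animals without tumours and to between 5266 and 15010 CPM in tumours, and all 12 of them were detected in every group. Neuron markers were present too: the 12 summed to between 7425 and 15090 CPM in the animals without tumours and to between 835 and 2896 CPM in tumours. In bulk samples, fewer cells of a type and less RNA per cell cannot be told apart. Of 8 markers of striated muscle, where triadin is best known, Myh6 had 0 counts in every group, while Ttn (23.7 CPM), Actn2 (8.30), Myh7 (4.16) and Acta1 (3.86) were present in WT at 150 dpi. Tnnt2 (0.947 CPM), Myl2 (0.457 CPM) and Ckm (0.016 CPM, on 1 count) lay lower there. Of the 6 that could be tested, 3 were lower in tumours than in WT at 150 dpi, namely Actn2 (log2 change -3.70), Myh7 (-3.21) and Acta1 (-3.19), and Ttn was higher (2.69, edgeR adjusted p 0.0018 or lower for each). The groups overlapped for Ttn and Acta1. The tumour mean of Ttn, 191 CPM, included 1120 CPM in Tumor_16840. Summed, the 8 markers had a median of 32.7 CPM in tumours and 41.6 CPM in WT at 150 dpi. Their part in the results was not tested.

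A library stood apart. Animal CKO_20647 at 90 dpi had a pair of libraries of similar depth, 9670378 and 9468941 counts, with 17957 and 13265 genes above 0. The other 46 bulk libraries above 1000000 counts had 15358 to 20712. The library with fewer genes held 0 counts of Trdn against 441 in its partner, 0 against 286 of Ryr3, 0 against 21 of Casq2, and 4300 against 1284 of Itpr1. In the 10 other animals with a pair of libraries, Trdn differed by at most 1.30 on the log2 scale between them and Itpr1 by at most 0.71. For this, 0.5 CPM was added to each value. These animals include all the tumours, where few Trdn counts keep that difference small. In the CKO pairs among them Trdn differed by 0.24 (CKO_20642), 0.59 (CKO_22208) and 0.09 (CKO_22212). The pair was summed as for every animal, and values without the library with fewer genes are given where it matters.

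Promoter sequences are shown for a member that was far lower in tumours, Ryr2, and for one that was higher, Itpr2. RefSeq (GRCm38.p6) promoter entries were matched for 6 of the 10 members. The windows cover the 250 bases before the RefSeq start on the gene's own strand, chr13:12106946-12107195 (minus strand) for Ryr2 and chr6:146502224-146502473 (minus strand) for Itpr2. Capitals mark the GC box GGGCGG on either strand.
Ryr2: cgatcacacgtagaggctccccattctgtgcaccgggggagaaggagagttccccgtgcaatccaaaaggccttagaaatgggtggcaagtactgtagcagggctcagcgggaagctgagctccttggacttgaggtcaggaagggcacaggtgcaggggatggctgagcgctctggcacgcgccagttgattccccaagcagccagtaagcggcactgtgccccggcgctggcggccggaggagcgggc
Itpr2: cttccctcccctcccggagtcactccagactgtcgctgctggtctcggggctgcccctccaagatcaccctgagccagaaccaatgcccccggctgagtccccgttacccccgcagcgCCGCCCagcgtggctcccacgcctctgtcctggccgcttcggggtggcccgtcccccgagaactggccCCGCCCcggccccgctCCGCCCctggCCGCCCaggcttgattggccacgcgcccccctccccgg
The GC box stood in the Itpr2 window and in those of Ryr1, Itpr3 and Jph3, 4 of 6 matched members, but not in that of Ryr2, and in 32.7% of 32817 promoters of this length. Other motifs searched on both strands were the cAMP response element TGACGTCA with its core TGACG, which lies within it, the E-box forms CACGTG and also CAGCTG, and the TATA box, searched as TATAAA. Of these, CACGTG was found in Itpr3 alone, against 6.02% of all promoters, and the others in no member window, against 1.55% for TGACGTCA, 17.7% for TGACG, 13% for CAGCTG and 12.4% for TATAAA. A match is a description of letters in this window. The Ryr2 window had 63.2% G and C and 14 CG dinucleotides, and the Itpr2 window 74.4% and 22.

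Trdn (ENSMUSG00000019787, protein-coding, chromosome 10, 33080554 to 33476709, GRCm38, plus strand) was near absent from tumours. In the 7 tumours its level ran from 0.0878 to 1.08 CPM with a median of 0.251, which rests on 1 to 36 counts per animal. WT animals at 150 dpi ran from 39.1 to 129 CPM with a median of 57.1. In CKO animals at 90 dpi it ran from 27.0 to 78.6 CPM with a median of 45.0, the lowest being the animal with the library that stood apart (46.1 CPM without that library). Every tumour lay far below every other animal of the study. The fitted log2 change (edgeR) was -7.04 (SE 0.44) against WT at 150 dpi, the 6th lowest of 16346 genes, and -6.57 (SE 0.43) against CKO at 90 dpi, the 5th lowest. These values are what chose the gene.

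Before tumours, no genotype difference of Trdn passed the test. At 12 dpi it had 39.8 ± 13.3 CPM (SD, n = 7) in CKO; WT averaged 41.0 ± 13.0 CPM (SD, n = 5), its 5 animals having 32.3, 33.1, 37.5, 38.3 and 63.8 CPM. At 90 dpi it had 47.4 ± 16.0 CPM (SD, n = 7) in CKO; WT averaged 38.9 ± 17.4 CPM (SD, n = 5), its animals having 9.48, 41.9, 42.3, 45.2 and 55.8 CPM. The 9.48 CPM of WT_21167 is 1 count in the shallowest library. Groups overlapped at both times. The edgeR log2 change of CKO against WT was -0.04 (SE 0.35) at 12 dpi and 0.14 (SE 0.35) at 90 dpi (adjusted p 1 in both), and in WT from 90 to 150 dpi it was 0.60 (SE 0.37, adjusted p 0.728).

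**Figure D1:**
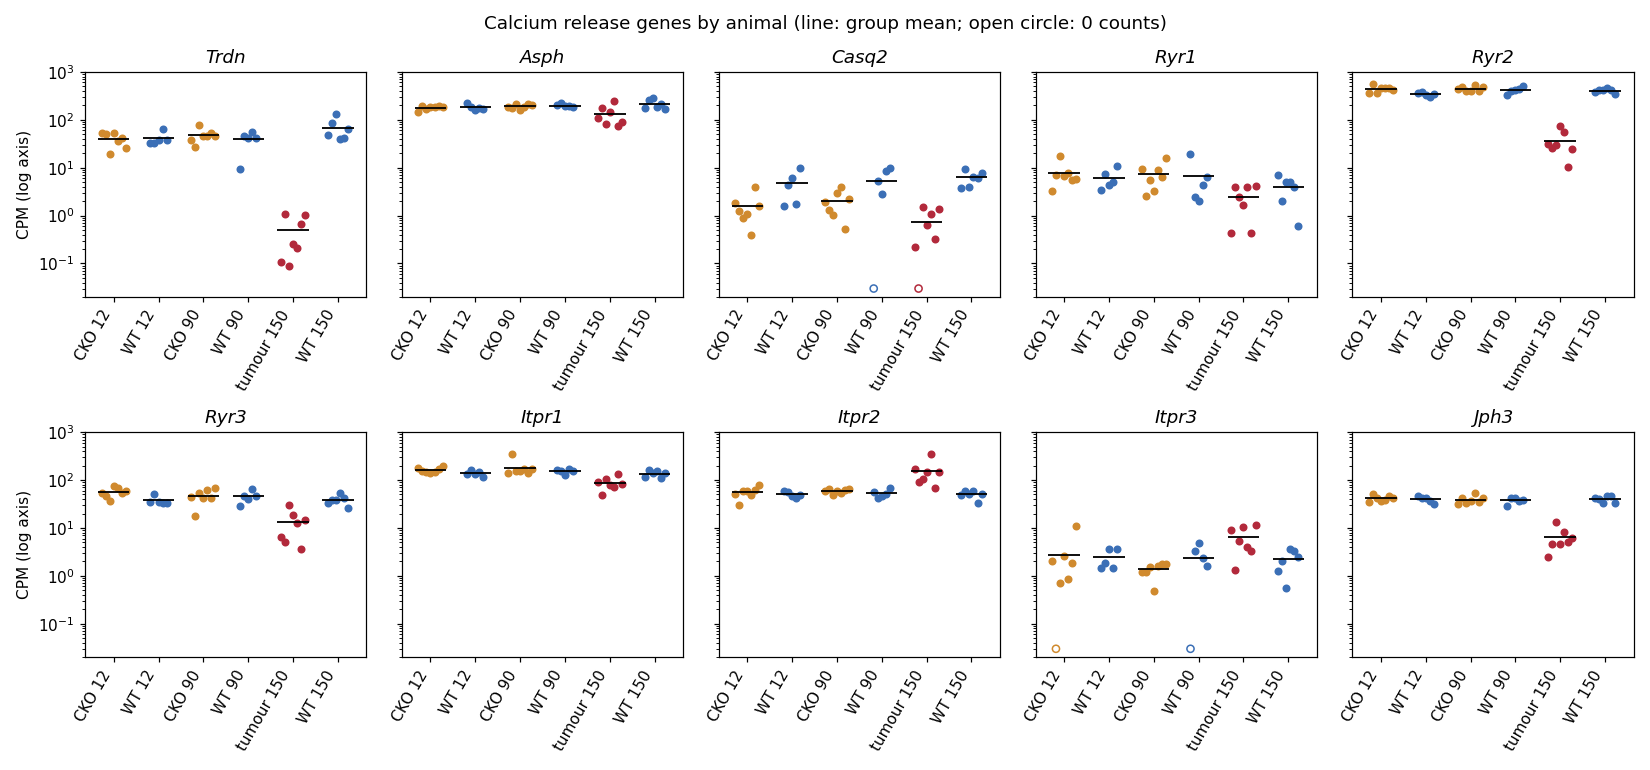
CPM of each of the 10 genes by animal on a log axis, for CKO and WT at 12 and 90 dpi, and tumours and WT at 150 dpi; points are animals, black lines group means, and open circles animals with 0 counts drawn at the foot of the axis. Tumours sit apart in Trdn (0.0878 to 1.08 CPM), Ryr2 (10.3 to 73.6 CPM) and Jph3 (2.53 to 13.3 CPM), while the groups before tumours overlap in every panel.

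The other members that anchor the junction were lower in tumours as well. Of the 9 members apart from Trdn, 8 passed the test in tumours against WT at 150 dpi, 6 lower and 2 higher (edgeR quasi-likelihood test, called at 0.05 after Benjamini-Hochberg adjustment across the 16346 tested genes). In the same contrast 46.2% of all tested genes passed, and the median log2 change was -0.71 over the 9 members against 0.06 over all tested genes. Against CKO at 90 dpi all 9 passed, 7 lower and 2 higher, where 49% of all tested genes passed. The median change there was -1.28 over the members and 0.12 over all genes. The contrasts share the tumour animals, so their values are set side by side and are not independent of each other. As the members were chosen with earlier results of these data known, these counts are descriptions.

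Jph3 (junctophilin 3; chromosome 8, 121729623 to 121794276, plus strand) ran from 2.53 to 13.3 CPM in tumours with a median of 5.02. WT at 150 dpi ran from 32.9 to 47.3 CPM with a median of 41.3, and CKO at 90 dpi from 31.4 to 52.5 CPM with a median of 35.6. The tumours overlapped neither group. Its fitted log2 change was -2.67 (SE 0.23, edgeR adjusted p 2.99e-12) against WT and -2.59 (SE 0.22, edgeR adjusted p 2.67e-12) against CKO at 90 dpi.

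Casq2 (calsequestrin 2; chromosome 3, 102086415 to 102146514, plus strand) was low everywhere, with 0 to 1.52 CPM in tumours (median 0.647), 3.82 to 9.58 CPM in WT at 150 dpi (median 6.22) and 0.537 to 3.87 CPM in CKO at 90 dpi (median 1.89). Tumours lay below all WT animals but overlapped the CKO animals. Against WT it fell by 3.06 on the log2 scale (SE 0.57, edgeR adjusted p 3.26e-05). Against CKO at 90 dpi the change of -1.28 (SE 0.54) passed at an adjusted p of 0.0498, and 31 of 44 alternative settings put it above the threshold (highest adjusted p 0.137). Without the library of CKO_20647 that stood apart it was -1.39 (edgeR adjusted p 0.0302).

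Casq2 was also the member with the largest difference between genotypes before tumours. At 12 dpi CKO animals averaged 1.58 ± 1.15 CPM (SD, n = 7) and WT animals 4.74 ± 3.50 CPM (SD, n = 5). At 90 dpi the averages were 1.97 ± 1.16 CPM (SD, n = 7) and 5.28 ± 4.07 CPM (SD, n = 5). The groups overlapped at both times. The log2 changes of -1.63 (SE 0.58) and -1.79 (SE 0.58) had unadjusted p of 0.00822 and 0.00402 and did not pass the test over all genes (edgeR adjusted p 0.95 and 0.721).

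Asph (chromosome 4, 9448069 to 9669344, minus strand) changed less. Tumours ran from 75.6 to 243 CPM (median 107) against 166 to 279 CPM in WT at 150 dpi (median 198) and 162 to 216 CPM in CKO at 90 dpi (median 188). The groups overlapped, with Tumor_21256 at the top of the tumours. Its fitted log2 change was -0.71 (SE 0.18, edgeR adjusted p 0.00107) against WT and -0.62 (SE 0.17, edgeR adjusted p 0.00286) against CKO at 90 dpi. The count merges the hydroxylase, junctin and junctate. Asph also shares 2304 identical bases with transcripts of Clvs1, a gene on the opposite strand that fell from 137 CPM in WT to 10.4 CPM in tumours (log2 change -3.76, edgeR adjusted p 1.92e-13), and no source used here says whether strand was used in counting. The part of shared reads in the change of Asph was not tested.

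**Figure D2:**
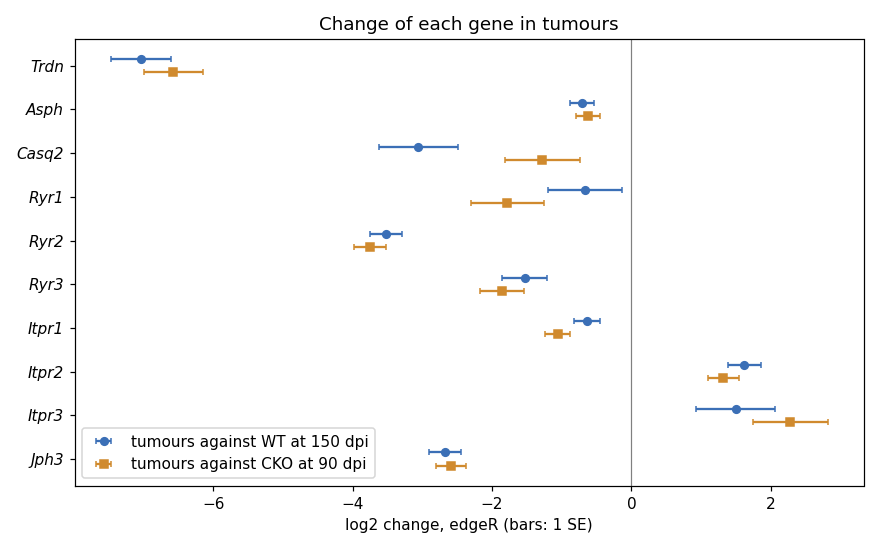
Log2 change of each gene in tumours against WT at 150 dpi (circles) and against CKO at 90 dpi (squares), with bars of 1 SE from the edgeR fit. Trdn lies farthest left at -7.04 and -6.57, followed by Ryr2 at -3.53 and -3.75, and Itpr2 and Itpr3 lie to the right of 0.

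Among ryanodine receptors, Ryr2 (chromosome 13, 11553102 to 12106945, minus strand), the cardiac and main brain form, showed the largest fall. Tumours ran from 10.3 to 73.6 CPM with a median of 29.8, WT at 150 dpi from 343 to 450 CPM with a median of 416, and CKO at 90 dpi from 398.5 to 532 CPM with a median of 446.5. No tumour came near another animal. The log2 change was -3.53 (SE 0.23, edgeR adjusted p 3.39e-15) against WT and -3.75 (SE 0.23, edgeR adjusted p 6e-16) against CKO at 90 dpi.

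Ryr3 (chromosome 2, 112631355 to 113217096, minus strand) fell less. It ran from 3.64 to 30.1 CPM in tumours (median 12.7), from 25.7 to 53.1 CPM in WT at 150 dpi (median 38.4) and from 17.5 to 69.3 CPM in CKO at 90 dpi (median 44.1). Tumor_16840, with 30.1 CPM, overlapped both groups, and Tumor_16844, with 18.9 CPM, lay above the lowest CKO animal. Its fitted log2 change was -1.53 (SE 0.32, edgeR adjusted p 0.000182) against WT and -1.85 (SE 0.32, edgeR adjusted p 8.03e-06) against CKO at 90 dpi. The low end of the CKO group is CKO_20647 (29.9 CPM without the library that stood apart), and without that library the change was -1.91. Ryr3 shares 867 bases with Aven on the opposite strand, which had 10.7 CPM in tumours and 9.69 CPM in WT (log2 change 0.16, edgeR adjusted p 0.738).

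Ryr1 (chromosome 7, 29003344 to 29125179, minus strand), the skeletal muscle form, was scarce in all groups. Tumours ran from 0.424 to 4.18 CPM (median 2.46), WT at 150 dpi from 0.613 to 6.88 CPM (median 4.51) and CKO at 90 dpi from 2.57 to 16.1 CPM (median 6.29). The groups overlapped. Its change did not pass against WT (-0.67, SE 0.53, edgeR adjusted p 0.321) and passed against CKO at 90 dpi (-1.78, SE 0.52, edgeR adjusted p 0.00456).

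IP3 receptors moved in both directions. Itpr1 (chromosome 6, 108213096 to 108551109, plus strand), the form most abundant in neurons, ran from 49.8 to 136 CPM in tumours (median 84.0), from 108 to 158 CPM in WT at 150 dpi (median 139) and from 141 to 341 CPM in CKO at 90 dpi (median 155). The tumours overlapped WT and lay below all CKO animals. The log2 change was -0.63 (SE 0.18, edgeR adjusted p 0.00477) against WT and -1.06 (SE 0.18, edgeR adjusted p 5.62e-06) against CKO at 90 dpi. The 341 CPM belongs to CKO_20647. Without its library with fewer genes the animal had 134 CPM, below the 136 CPM of the highest tumour, and the change was -0.79 (edgeR adjusted p 1.04e-05).

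Itpr2 (chromosome 6, 146108299 to 146502223, minus strand), the form typical of glia, rose. Tumours ran from 67.0 to 347 CPM with a median of 147, WT at 150 dpi from 32.7 to 59.8 CPM with a median of 50.6, and CKO at 90 dpi from 49.7 to 66.1 CPM with a median of 59.8. Every tumour lay above every animal of both groups, although the lowest, Tumor_21349, exceeded the highest CKO animal by under 1 CPM. In other groups CKO_22364 at 12 dpi (78.6 CPM) and WT_22255 at 90 dpi (67.9 CPM) lay above that tumour. The log2 change was 1.62 (SE 0.24, edgeR adjusted p 6.25e-07) against WT and 1.32 (SE 0.22, edgeR adjusted p 6.8e-06) against CKO at 90 dpi.

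Itpr3 (chromosome 17, 27057304 to 27122223, plus strand), the form known from epithelia, rose from a low level. Tumours ran from 1.35 to 11.5 CPM (median 5.32), WT at 150 dpi from 0.567 to 3.59 CPM (median 2.24) and CKO at 90 dpi from 0.491 to 1.80 CPM (median 1.54). The groups overlapped through Tumor_16839, with 1.35 CPM, and, for WT, Tumor_21349 with 3.25 CPM. Its fitted log2 change was 1.50 (SE 0.56, edgeR adjusted p 0.0284) against WT and 2.28 (SE 0.54, edgeR adjusted p 0.000608) against CKO at 90 dpi. The call against WT was lost in 5 of 44 alternatives, among them without Tumor_21354 (adjusted p 0.0716), Tumor_16844 (0.06), WT_21590 (0.0589) or WT_21592 (0.0586).

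Of the 9 members apart from Trdn, the groups did not overlap at all for Casq2, Ryr2, Itpr2 and Jph3, 4 in number, between tumours and WT at 150 dpi, where 15.7% of tested genes were apart. Between tumours and CKO at 90 dpi it was 4 again, Ryr2, Itpr1, Itpr2 and Jph3, where 17.2% of tested genes were apart, and Itpr1 overlapped once the library of CKO_20647 was left out (134 CPM against a highest tumour of 136). Neuron markers were lower as well: 10 of the 12 neuron markers were lower in tumours than in WT at 150 dpi, with a median log2 change of -3.14 over the 12, and the other 2 did not pass the test. Of the microglia markers 9 of 10 were higher, and of the OPC markers 10 of 12 were. Of 10 oligodendrocyte markers 6 were lower and 1 higher, with a median log2 change of -1.49. Astrocyte markers were split, with 3 higher and 3 lower of 8, and mural cell markers had 2 higher and 3 lower of 8. Of 8 endothelial markers 2 were lower, and of 4 tested Purkinje cell markers 1 was. The part of these markers in the changes of the members was not tested.

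Per length of exons, the order of the members was rebuilt in tumours. In WT at 150 dpi the mean levels were 14.1 CPM per kb for Ryr2, 13.3 for Asph, 9.08 for Jph3, 7.38 for Itpr1, 7.31 for Trdn, 3.38 for Itpr2, 2.28 for Casq2, 2.03 for Ryr3, 0.245 for Itpr3 and 0.180 for Ryr1 (n = 6). Neighbours in that order lay within 1 SD of each other for Ryr2 and Asph, for Itpr1 and Trdn, for Casq2 and Ryr3, and for Itpr3 and Ryr1. In tumours the order was Itpr2 with 10.4 CPM per kb, Asph with 8.12, Itpr1 with 4.78, Jph3 with 1.42, Ryr2 with 1.24, Itpr3 with 0.713, Ryr3 with 0.690, Casq2 with 0.268, Ryr1 with 0.112 and Trdn with 0.0524 (n = 7). Itpr2 and Asph, Jph3 and Ryr2, and Itpr3 and Ryr3 lay within 1 SD of each other there by the smaller SD of the pair. By the larger SD of the pair so did Asph and Itpr1, Ryr2 and Itpr3, Ryr3 and Casq2, Casq2 and Ryr1, and Ryr1 and Trdn. Much of the tumour order is thus not resolved. Trdn went from the middle of the set to its foot, and Itpr2 to its head. Levels per length assume that reads cover a transcript evenly, which was not tested.

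Summed per length, IP3 receptor RNA stood above ryanodine receptor RNA in all 7 tumours and below it in every other animal except CKO_20647, whose log2 ratio was 0.39 and, without its library with fewer genes, -0.53. The log2 ratio of summed Itpr to summed Ryr was 3.09 ± 0.81 in tumours (SD, n = 7), from 2.08 to 4.44, and -0.58 ± 0.25 in WT at 150 dpi (SD, n = 6), from -0.98 to -0.24. The groups did not overlap. The difference was 3.67 (two-sided exact permutation test over 1716 assignments, p = 0.000583, adjusted p = 0.00245 over 21 tests of 3 ratios in 7 contrasts). Against CKO at 90 dpi, with -0.41 ± 0.38 (SD, n = 7), the difference was 3.50 (exact permutation p = 0.000583, adjusted p = 0.00245). The ratios were chosen after the values of the members had been seen, with tumours already apart in Ryr2 and Itpr2. Their p-values in tumour contrasts, here and below, describe that separation and are not separate evidence for it.

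Within the IP3 receptors, Itpr2 made up 62.3% ± 14.6 of the summed level per length in tumours (SD, n = 7) and 30.6% ± 2.43 in WT at 150 dpi (SD, n = 6), and Itpr1 33.1% ± 14.5 and 67.2% ± 1.72. The log2 ratio of Itpr2 to Itpr1 was 0.99 ± 1.00 (SD, n = 7) in tumours; WT had -1.14 ± 0.15 (SD, n = 6; exact permutation p = 0.00117, adjusted p = 0.00408). It was above 0 in 6 of 7 tumours, from 0.33 to 2.59, and -0.71 in Tumor_21349. That tumour still lay above all WT animals at 150 dpi, whose highest ratio was -0.98.

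Within the ryanodine receptors, Ryr2 made up 61.0% ± 13.6 in tumours (SD, n = 7) and 86.6% ± 1.93 in WT at 150 dpi (SD, n = 6), and Ryr3 33.0% ± 13.3 and 12.3% ± 1.67. The log2 ratio of Ryr3 to Ryr2 was -0.94 ± 0.88 (SD, n = 7) in tumours; WT had -2.83 ± 0.22 (SD, n = 6; exact permutation p = 0.000583, adjusted p = 0.00245). It was highest, at 0.61, in Tumor_16840, where Ryr3 made up 58.0% of the family. In the 5 contrasts without tumours no ratio differed beyond the spread between animals (lowest adjusted p 0.538 by exact permutation tests with 5 to 7 animals a group). In CKO_20647 the ratios moved with the library that stood apart: Ryr3 to Ryr2 was -4.17 with it and -3.25 without it, and Itpr2 to Itpr1 was -2.11 with it and -0.87 without it. Without that library the 3 differences of tumours against CKO at 90 dpi were 3.64, 2.07 and 1.66 (exact permutation p = 0.000583 for each, unadjusted).

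**Figure D3:**
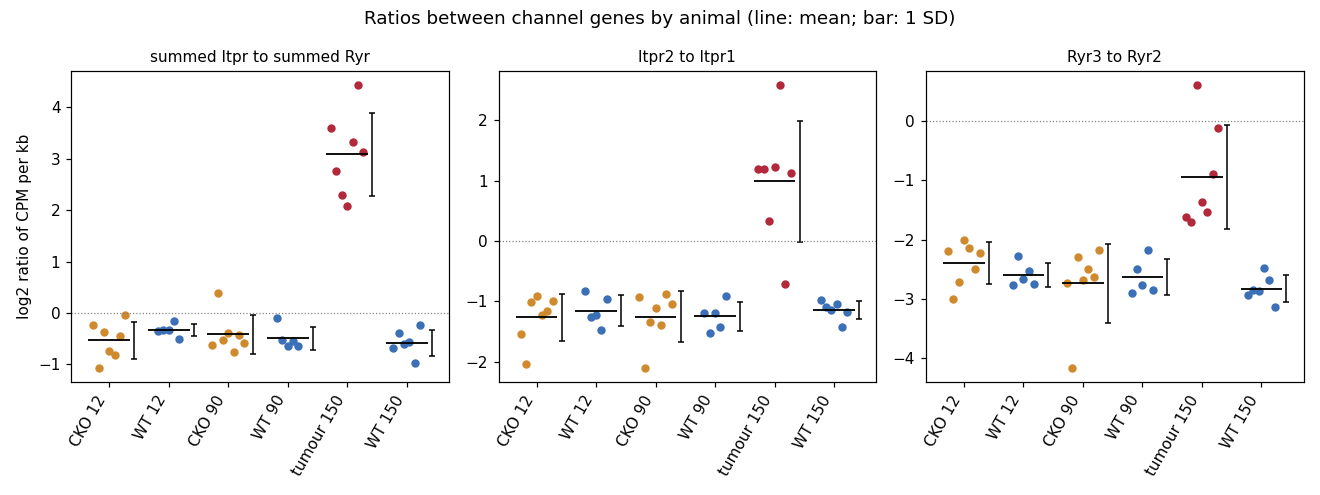
Log2 ratios of CPM per kb by animal for summed Itpr to summed Ryr, Itpr2 to Itpr1 and Ryr3 to Ryr2; points are animals, lines group means and bars 1 SD. In the first panel all 7 tumours lie between 2.08 and 4.44, above the other groups; the low CKO point at 90 dpi in the third panel is CKO_20647 at -4.17.

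The genotype effect changed between 90 and 150 dpi for 6 of 9 members, where 30% of all tested genes passed (edgeR). The mutant group is tumours at 150 dpi and CKO OPCs at 90 dpi, so time and tumour state cannot be told apart in this effect. It became more negative for Ryr2 (-3.61, SE 0.33, adjusted p 4.6e-11), Jph3 (-2.66, SE 0.33, adjusted p 4.93e-08), Ryr3 (-1.51, SE 0.48, adjusted p 0.0139) and Itpr1 (-0.88, SE 0.27, adjusted p 0.0123). It became more positive for Itpr2 (1.43, SE 0.34, adjusted p 0.00124) and Itpr3 (2.49, SE 0.81, adjusted p 0.0174). Asph, at -0.66, just missed the threshold (adjusted p 0.0519), and it passed without CKO_20647 (adjusted p 0.0426), without its library with fewer genes (0.0406), or without Tumor_16839 (0.0322), Tumor_21256 (0.00255), WT_21590 (0.0394) or WT_21593 (0.0386). Casq2 (-1.26) and Ryr1 (-1.58) did not pass (adjusted p 0.252 and 0.138). With the 4 groups fitted alone, Ryr3 and Itpr1 missed the threshold (adjusted p 0.0502 and 0.0621).

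In the 5 bulk contrasts without tumours no member passed the test. In CKO against WT at 12 dpi 0 of 10 passed by edgeR and 0 by DESeq2, with 1 (Casq2) at an unadjusted p under 0.05, and 0.0184% of tested genes passed. At 90 dpi it was again 0 of 10 by both tools with Casq2 under the unadjusted 0.05, and 0.0489% of genes passed. In CKO animals at 90 against 12 dpi 0 of 10 members and 0% of genes passed (edgeR), with 0 members at an unadjusted p under 0.05 and 0 by DESeq2. In WT animals at 90 against 12 dpi it was 0 of 10 and 0.00612%, and at 150 against 90 dpi 0 of 10 and 0.0184%, again with 0 members at an unadjusted p under 0.05 and 0 by DESeq2. Changes over these 5 contrasts ran from -1.79 for Casq2 to 0.92 for Ryr1 (CKO against WT at 90 dpi), and the SE of 0.53 to 0.66 for Itpr3 shows how wide an interval the scarce members leave.

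The genes most like Trdn in their pattern depended on the tumours. Over all 37 animals the highest Pearson correlations of log2 CPM with Trdn, among 8172 genes above the median level, were those of Ap1s2 (0.977), Ipcef1 (0.977), Penk (0.975), 6430571L13Rik (0.975) and Kcnj4 (0.974). The tumours hold much of that range: the fitted log2 changes of these genes in tumours against WT ran from -6.47 (Penk) to -2.96 (Ap1s2). Among members, Ryr2 reached 0.91, Jph3 0.905, Itpr2 -0.82 and Ryr3 0.76. Over the 30 animals without tumours the nearest genes were Ccnl1 (0.90), Pip4k2a (0.86), Lrrcc1 (0.855), Ell2 (0.85) and Kctd3 (0.85). There the members ran from -0.455 (Ryr1) to 0.486 (Casq2), with Asph at 0.38, Ryr2 at 0.18 and Jph3 at -0.04. Without the shallow WT_21167 the nearest were Gnptg (0.85), Ccnl1 (0.84), Grik2 (0.83), Clk4 (0.83) and Eif1ad (0.83), and the members ran from -0.393 (Jph3) to 0.526 (Asph). The points share depth and the scaling of a library, and the values are descriptions.

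Genes around the members were read from 6 lists of calcium handling. Of luminal and junctional partners 10 of 19 tested passed in tumours against WT at 150 dpi, 4 higher and 6 lower (median log2 change -0.35). The largest falls were those of Jph4, the other junctophilin of neurons (-3.20, edgeR adjusted p 6.98e-12), and Stac2 (-3.13, edgeR adjusted p 1.91e-11). The largest rises were those of Rcn1, a luminal calcium-binding protein (1.93, edgeR adjusted p 1.02e-08), and Selenon (1.42, edgeR adjusted p 8.81e-05). Calr, encoding the luminal buffer calreticulin, was among the 4 that rose.

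Of the pumps and exchangers 9 of 10 passed and all 9 were lower (median -1.61), led by the plasma membrane pumps Atp2b2 (-3.99, edgeR adjusted p 4.44e-18) and Atp2b3 (-2.58, edgeR adjusted p 2.7e-12). Atp2a2, the pump that refills the reticulum, had 450.4 CPM in tumours and 712 CPM in WT (-0.66, edgeR adjusted p 2.83e-05). Of channel scaffolds and calcium effectors 13 of 14 passed, 11 lower and 2 higher (median -1.66). The falls were largest for the kinases Camk4 (-4.35, edgeR adjusted p 1.49e-09) and Camk2b (-3.48, edgeR adjusted p 7.04e-16), and the rises were Homer3 (1.29, edgeR adjusted p 0.0297) and S100a1 (1.11, edgeR adjusted p 0.00263).

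IP3 production was mixed, with 12 of 19 passing, 5 higher and 7 lower (median 0.10). Plcg2, a phospholipase C of immune cells (2.20, edgeR adjusted p 0.00134), and Itpkb, an IP3 kinase (1.70, edgeR adjusted p 1.24e-05), rose most, while Plcb1, a phospholipase C abundant in neurons (-2.89, edgeR adjusted p 1.07e-10), and Itpka (-2.75, edgeR adjusted p 0.00772) fell most. Of store-operated entry 7 of 11 passed, 2 higher and 5 lower (median -0.02). Trpc6 (2.06, edgeR adjusted p 0.00033) and the channel Orai1 (1.51, edgeR adjusted p 0.000116) rose, and Trpc4 (-3.78, edgeR adjusted p 1.27e-12) and Trpc1 (-1.30, edgeR adjusted p 1.53e-06) fell most. Of mitochondrial uptake 5 of 9 passed, with Slc8b1 the 1 that rose (1.78, edgeR adjusted p 0.00217) and Mcub (-2.14, edgeR adjusted p 0.00022) and Micu3 (-1.50, edgeR adjusted p 8.63e-07) the largest falls. All of these stand beside the 46.2% of all tested genes that passed. The lists were chosen with earlier results of these data known, so these counts are descriptions.

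**Figure D4:**
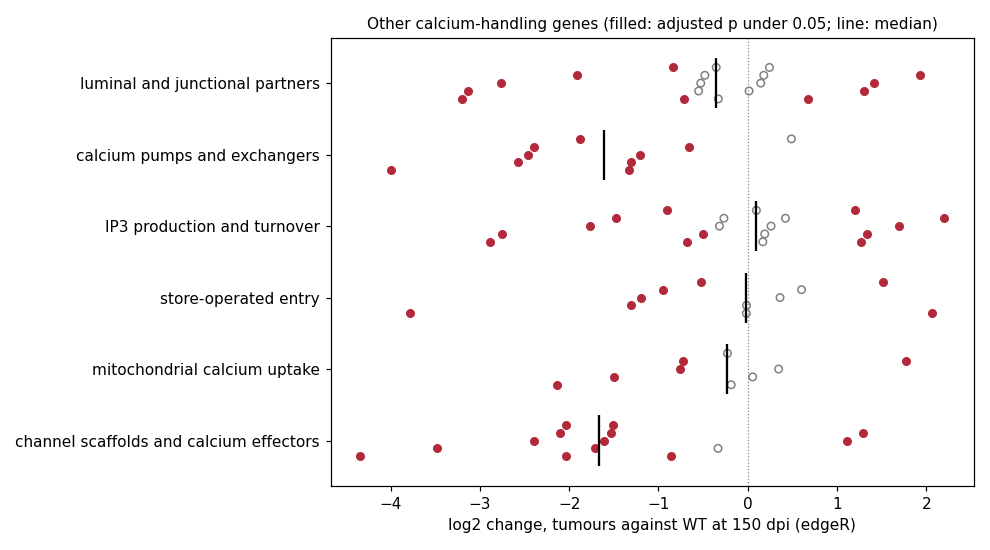
Log2 change in tumours against WT at 150 dpi of each tested gene of the 6 calcium-handling lists; filled points passed the test, open points did not, and black lines are list medians. Pumps and exchangers (median -1.61) and scaffolds and effectors (median -1.66) lie mostly left of 0, while the other lists spread to both sides.

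The small libraries hold premalignant CKO cells and no tumours, so that they show how often the members are seen in 10 cells. Trdn had a count above 0 in 27 of 56 10-cell libraries at 12 dpi (48.2%, exact Clopper-Pearson 95% interval 34.7 to 62.0%) and in 22 of 56 at 90 dpi (39.3%, 26.5 to 53.2%). In pool-and-split libraries it was 21 of 40 (52.5%) and 22 of 40 (55.0%). Intervals cover counting error only. Its signal was uneven: the highest 10-cell library held 44.1% of the CPM summed over libraries at 12 dpi and 55.2% at 90 dpi, with 414 and 570.4 CPM. Ryr2, the most abundant ryanodine receptor gene in bulk, was seen in 66.1% and 80.4% of 10-cell libraries, and Ryr3 in 8.93% and 32.1%. These libraries were amplified by PCR and the bulk ones linearly by T7, per the labels, and levels are not compared between them.

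Every member but Trdn was seen in a larger share of 10-cell libraries at 90 than at 12 dpi. Among them were Ryr1 (48.2% at 90 dpi and 26.8% at 12 dpi), Itpr3 (44.6% and 23.2%), Jph3 (78.6% and 58.9%) and Itpr1 (94.6% and 76.8%). In pool-and-split libraries Jph3 went the other way, from 72.5% at 12 dpi to 52.5% at 90 dpi, and so did Casq2, from 50% to 42.5%. The shares of the other members, Trdn included, were larger at 90 dpi there. Itpr2 was seen in 37 of 56 10-cell libraries at 12 dpi (66.1%, 52.2 to 78.2%) and in 55 of 56 at 90 dpi (98.2%, 90.4 to 100%). Summed by set of 14 libraries, the 4 sets had 13.0 to 44.9 CPM at 12 dpi (median 22.8) and 54.8 to 123 CPM at 90 dpi (median 86.8). The edgeR log2 change was 1.60 (SE 0.50, unadjusted p 0.0103, adjusted p 0.633) and did not pass; DESeq2 gave 1.57 with an adjusted p of 0.0411. In pool-and-split sets, with 8.84 to 102 CPM at 12 dpi and 36.5 to 186 CPM at 90 dpi, the groups overlapped and the change of 1.70 (SE 0.91, edgeR adjusted p 0.681) did not pass. In bulk CKO animals the change over the same times was 0.06 (SE 0.22), with 55.7 ± 14.7 CPM (SD, n = 7) and 59.1 ± 5.96 CPM (SD, n = 7). The 10-cell libraries also held more genes at 90 dpi, with a median of 10071 above 0 against 7496 at 12 dpi, at median depths of 4041808 and 4481274 counts. In pool-and-split libraries the medians were 8686 and 8651.5 genes. The part of this in the detection of the members was not tested.

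In 10-cell sets at 90 against 12 dpi 0 of 10 members passed by edgeR, where 0% of 14496 genes did, with 1 member (Itpr2) at an unadjusted p under 0.05, as had 1035 of all genes, and 1 by DESeq2, which called 680 genes in all. In pool-and-split sets 0 of 10 passed by edgeR, where 0% of 13402 genes did, with 0 at an unadjusted p under 0.05 and 0 by DESeq2. The SE of Trdn was 1.05 and 1.40 on the log2 scale in these fits, which leaves wide intervals. Neuron markers summed to 2025 to 4247 CPM over these sets and OPC markers to 428.5 to 1730 CPM. The OPC sum was below the neuron sum in every set. In 10-cell sets the neuron sums were 2940 to 4247 CPM at 12 dpi and 2276 to 2843 CPM at 90 dpi, while the OPC sums overlapped. In pool-and-split sets the OPC sums were 848 to 1016 CPM and then 1061 to 1730 CPM, while the neuron sums overlapped. The part of these markers in the changes was not tested.

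Spread between 10-cell libraries was compared with that between pool-and-split libraries of the same time. Of the members seen in at least 50% of libraries, 0 of 7 passed at 12 dpi, where 0.0254% of genes did, and 0 of 7 at 90 dpi, where 0.673% did (limma, adjusted p under 0.05), with 0 at an unadjusted p under 0.05 at either time. Trdn, tested at 12 dpi alone, differed by 0.35 (SE 0.45, limma adjusted p 0.85) in mean absolute deviation of log2(CPM + 1). It was seen in 50% of those libraries, with a median of 0 CPM in 10-cell and 0.256 CPM in pool-and-split libraries. Spread and level are therefore hard to tell apart for Trdn. Libraries, not sets, were the units of this test. The nearest to a difference were Ryr2 at 12 dpi (0.59, SE 0.32, unadjusted p 0.0735) and Itpr2 at 90 dpi (-0.64, SE 0.37, unadjusted p 0.0829).

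**Figure D5:**
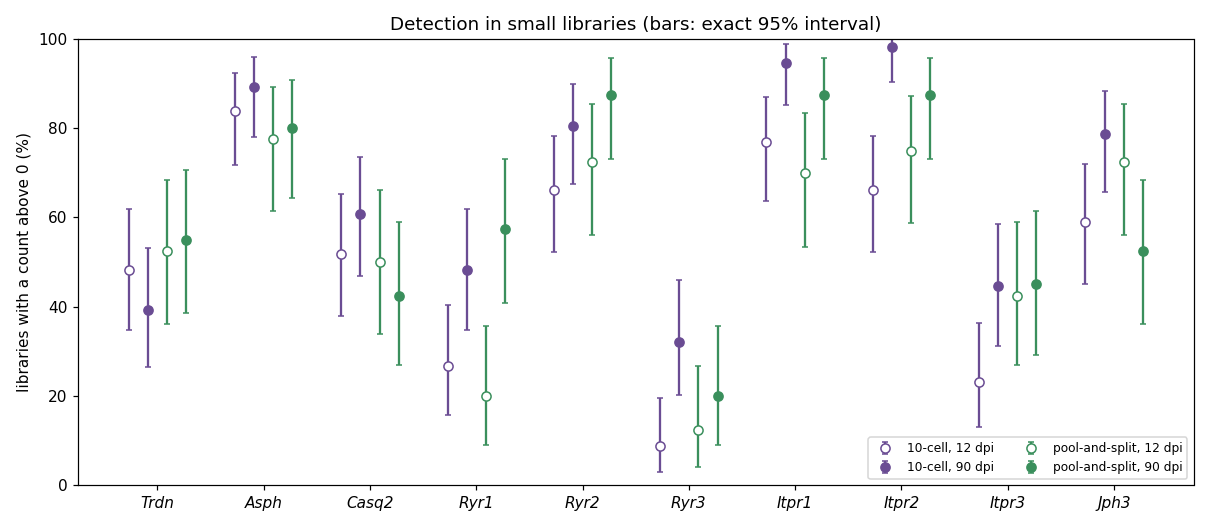
Share of small libraries with a count above 0 for each gene, by kind (10-cell, pool-and-split) and time (open 12 dpi, filled 90 dpi), with exact 95% intervals. Itpr2 in 10-cell libraries goes from 66.1% to 98.2%, and Trdn stays between 39.3% and 55.0%.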

How the data were processed

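RNA from laser-captured cells was sequenced in 48 bulk libraries of 37 animals and in 192 small libraries. The authors deposited RSEM expected counts per gene, unscaled, 1 column a library. Per the submitters' processing notes RSEM, Bowtie2 and GRCm38 were used, with no versions. Members and lists were chosen with earlier results of these data known.

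Expected counts were rounded, and an animal's libraries were added up. Spike-in rows (0% of bulk counts, 0.00622 to 24.5% in small libraries) were left out. edgeR 4.0.16 under R 4.3.3 fitted all 37 animals together, with sex as covariate and TMM scaling, on the 16346 genes kept by filterByExpr at a count of 10 and a total of 15. The quasi-likelihood test was used, and a gene is called where its Benjamini-Hochberg adjusted value is below 0.05. CPM use TMM-scaled totals, and an SE is the size of the log2 change over the root of F. Correlations use log2 CPM with a prior count of 2. Exon lengths are unions from GENCODE M21. Small libraries were added up by time, sex and number into 4 sets per time and fitted the same way. Spread was compared with limma 3.58.1 on absolute deviations of log2(CPM + 1) from set medians. Scripts were tested on simulated data. Alternatives were DESeq2 1.42.0, RLE scaling, other filters, a fit lacking sex, 1 library per animal (the deepest), only the groups compared, and each animal or set left out. Leaving out 1 library of CKO_20647, and the ratios with each animal left out, were added after seeing the data.

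The rule names all members, the 5 genes most correlated with Trdn over all and over non-tumour animals, and for each calcium list up to 2 called genes with the strongest rise and 2 with the strongest fall. Calr, Atp2a2, Clvs1 and Aven were named after their values were seen. Itprip was not used here. What the set number stands for is not given in the sources used here, and same-numbered sets did not deviate together (correlations -0.04 to 0.02). Where nothing states separate origins, p-values measure only the spread between these samples.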

Additional observations from a re-analysis of the deposited data

Results flagged for a closer look

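In 9 of the 60 combinations of a member and a group of animals, the highest animal lay far from the rest of its group. For normally distributed values, chance alone gives a far animal at either end in about 1 of 20 groups. Whether these CPM values have that shape was not tested. Trdn had 63.8 CPM in WT_22280 at 12 dpi, the next animal 38.3. Asph had 224 CPM in WT_22056 at 12 dpi, the next 181. Casq2 had 3.96 CPM in CKO_22363 at 12 dpi, the next 1.85. Ryr1 had 17.5 CPM in CKO_22017 at 12 dpi (next 7.76) and 18.9 CPM in WT_21167 at 90 dpi (next 6.32), the shallowest library. Ryr3 had 52.1 CPM in WT_22178 at 12 dpi, the next 35.4. Itpr1 had 341 CPM in CKO_20647 at 90 dpi, the next 172.5, and 134 CPM without its library with fewer genes. Itpr2 had 347 CPM in Tumor_21256, the next tumour 167. Itpr3 had 10.9 CPM in CKO_22364 at 12 dpi, the next 2.60.

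The genotype effect differed between 90 and 150 dpi by the test of the difference itself (edgeR) for 6 members, with log2 differences of -3.61 for Ryr2, -2.66 for Jph3, -1.51 for Ryr3, -0.88 for Itpr1, 1.43 for Itpr2 and 2.49 for Itpr3. At 150 dpi the mutant group is tumours and at 90 dpi it is OPCs, so time and tumour state cannot be told apart here.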

How the results depend on the processing

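Of 1691 values under alternative settings, 1646 were scored as unchanged, 38 lost a call, 6 gained one, 1 count moved and 0 reversed. For changes and ratios, unchanged means the same direction and the same side of the threshold. A count of members called was scored as unchanged while it stayed within a fixed factor of its main value, as all the bulk counts did. Trdn in tumour contrasts was scored by its direction and the size of its move alone. The count of members called ran from 6 to 8 in tumours against WT at 150 dpi, from 6 to 9 against CKO at 90 dpi and from 4 to 7 for the change of the genotype effect; in the 5 bulk contrasts without tumours it was 0 throughout. In 10-cell sets DESeq2 called 1 member (Itpr2) and 680 genes where edgeR called 0; in pool-and-split sets it called 0 members and 963 genes. With the replicate block of sex and number, 0 members were called in either kind (edgeR, adjusted p of Itpr2 0.882 and 0.874); the numbers do not pair the sets. With the set mean as centre the spread test called 312 genes at 12 dpi against 2, and 695 at 90 dpi against 65, with 0 members in each. Of the 38 lost calls, 31 were of Casq2 against CKO at 90 dpi (DESeq2 adjusted p 0.0672) 5 of Itpr3 against WT, among them with the deepest library of each animal (adjusted p 0.0511), and 1 each of Ryr3 and Itpr1 in the change of the genotype effect. The ratio differences ran from 1.54 to 3.84 with each animal left out (highest exact permutation p 0.00253). Depth limits Trdn in tumours, at 1 to 36 counts an animal, and the scarce Casq2, Ryr1 and Itpr3.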

Other observations

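Ttn, which encodes titin, made up nearly all of the striated muscle marker sum of Tumor_16840, with 1120 of 1124 CPM. The 8 markers together summed to between 18.4 and 94.4 CPM in the other 6 tumours, and none of the other 7 markers exceeded 3.23 CPM in any tumour. Tumor_16840 had the lowest Trdn of the tumours (0.0878 CPM) and the highest Ryr3 (30.1 CPM).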
